A study of Mus musculus with 6 samples.

Results

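The miR-17/92 cluster and its paralogue clusters, miR-106a-363 and miR-106b-25, were examined in small RNA sequencing of epididymal white adipose tissue (WAT). The members were the rows of the miRNA table named miR-17, miR-18a, miR-18b, miR-19a, miR-19b, miR-20a, miR-20b, miR-25, miR-92a, miR-93, miR-106a, miR-106b and miR-363, with each arm counted separately and miR-92b not included. Of 28 such rows among 1983 in the table, 14 were kept because they lay above the floor of the table in at least 3 of 6 libraries. The other 14 were at the floor in all 6 libraries. Tissue came from 3 wild type (Wt) and 3 angiotensinogen transgenic (Agt Tg) mice, with 1 library per mouse. All mice were C57BL6/J males. The labels give a chow diet for both genotypes, and the methods of the study describe a low-fat diet. In Agt Tg mice the aP2 promoter, which is active in adipocytes and also in macrophages, drives angiotensinogen, the precursor of angiotensin II. The age of the mice was not given in the sources used here.

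Each cluster is transcribed as 1 RNA that holds several miRNA hairpins, and each hairpin can yield a 5p and a 3p arm, of which the guide arm is the one usually loaded into Argonaute. The miR-17/92 cluster is driven by MYC and E2F factors and is known for promoting proliferation, also in the clonal expansion that precedes adipocyte differentiation. Members of the miR-17 family repress the cell cycle inhibitor p21 and the proapoptotic protein Bim, and miR-92a restrains vessel growth in endothelial cells. The miR-106b-25 cluster shares its transcript with Mcm7, a subunit of the replicative helicase.

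The mature mouse sequences from RefSeq (GRCm38.p6) are shown because the members are related through their seeds, bases 2 to 8 from the 5′ end, given in capitals. A sequence was found for 26 of the 28 rows. The miR-17 family shares the seed AAAGUGC.
miR-17-5p: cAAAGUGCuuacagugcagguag
miR-20a-5p: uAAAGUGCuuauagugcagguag
miR-93-5p: cAAAGUGCuguucgugcagguag
miR-106b-5p: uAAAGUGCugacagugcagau
miR-106a-5p: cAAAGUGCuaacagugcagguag
The miR-18 family has the seed AAGGUGC, which differs from that of the miR-17 family within the seed itself.
miR-18a-5p: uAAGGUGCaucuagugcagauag
The miR-19 family has the seed GUGCAAA.
miR-19a-3p: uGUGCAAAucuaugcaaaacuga
miR-19b-3p: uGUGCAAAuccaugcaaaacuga
The miR-92 family has the seed AUUGCAC, and miR-92b-3p, encoded outside the clusters, carries it too.
miR-92a-3p: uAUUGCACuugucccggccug
miR-25-3p: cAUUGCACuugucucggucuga
miR-363-3p: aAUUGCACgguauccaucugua
miR-92b-3p: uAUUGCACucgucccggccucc

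Several of these sequences are nearly identical. Counted from 1 at the 5′ end, miR-17-5p differs from miR-106a-5p by U10A, miR-19a-3p differs from miR-19b-3p by U11C, and miR-92a-3p differs from miR-92b-3p by U10C and G21C. Reads of such pairs could be shared or split by the authors' counting, and these values are uncertain to that extent. The rows carry human names. Mouse and human sequences are known to differ for some arms, among them miR-106a-5p, miR-17-3p and miR-20a-3p, so a value at the floor in those rows does not show that the mouse miRNA was absent. Human sequences were not compared here, so the same limit applies to any other row at the floor, also outside the clusters.

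In GRCm38 (GENCODE M21) the miR-17/92 cluster lies at chr14:115043671-115044506 on the plus strand, with its 6 hairpins in an exon of the long noncoding RNA Mir17hg. The miR-106a-363 cluster lies at chrX:52741693-52742567 on the minus strand and also has 6 hairpins, and an exon of the noncoding transcript Kis2 touches 1 of them. The miR-106b-25 cluster lies at chr5:138165321-138165818 on the minus strand inside Mcm7. Its 3 hairpins are all in introns of 2 of the 3 overlapping Mcm7 transcripts, and 2 hairpins are touched by an exon of the remaining transcript. Mature miR-19b-3p and miR-92a-3p are encoded in both the miR-17/92 and the miR-106a-363 cluster, so their reads cannot be assigned to either.

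The deposited value of a miRNA is the log2 of its reads after scaling each library total to 10000000, with scaled values under 10 raised to 10, so that the floor is 3.32. Library totals were 7480766, 7838874 and 9821467 reads in Wt and 10367417, 6387766 and 10562634 reads in Agt Tg mice, so the floor stood for 6.39 to 10.6 reads. Wt replicate 2 stood apart from the other libraries. The summed level of 5 epididymis and testis miRNAs, with miR-34c-5p the most abundant, was 16.43 on the log2 scale in this library and 9.76 to 10.49 in the others. The summed level of 10 epithelial miRNAs, with miR-375 the most abundant, was 15.74 there and 8.60 to 9.40 elsewhere. In these lists miR-34b-5p, miR-449c-5p, miR-429 and miR-96-5p were at the floor in all 6 libraries. Several differences between genotypes are also given without this library.

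The adipocyte list (5 miRNAs, 4 tested) had summed log2 levels of 18.82, 18.95 and 18.90 in Wt and 18.89, 19.01 and 19.33 in Agt Tg libraries. Its most abundant miRNA was miR-143-3p, which is also abundant in smooth muscle and other mesenchymal cells. The row of miR-193b-3p, a miRNA of brown adipocytes, was at the floor in all 6 libraries. Under a human row name this does not show that the mouse miRNA was absent.

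The cluster members made up 1.20% ± 0.166 (SD, n = 6 libraries) of the reads on listed miRNAs. Nearly all of these reads came from miR-92a-3p, miR-25-3p and miR-93-5p, which together held 96.8% ± 0.228 (SD, n = 6) of the members' reads. Small RNA library preparation captures miRNAs with unequal efficiency, so levels of different miRNAs compare reads, not molecules. The level of miR-92a-3p was 15.76, 15.29 and 15.58 in Wt and 15.54, 15.09 and 15.08 in Agt Tg libraries on the log2 scale. This was the highest member level in every library. For miR-25-3p the levels were 13.92, 13.76 and 13.75 in Wt and 13.77, 13.66 and 13.78 in Agt Tg libraries. These 6 values varied little, with a SD of 0.08.

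**Figure D1:**
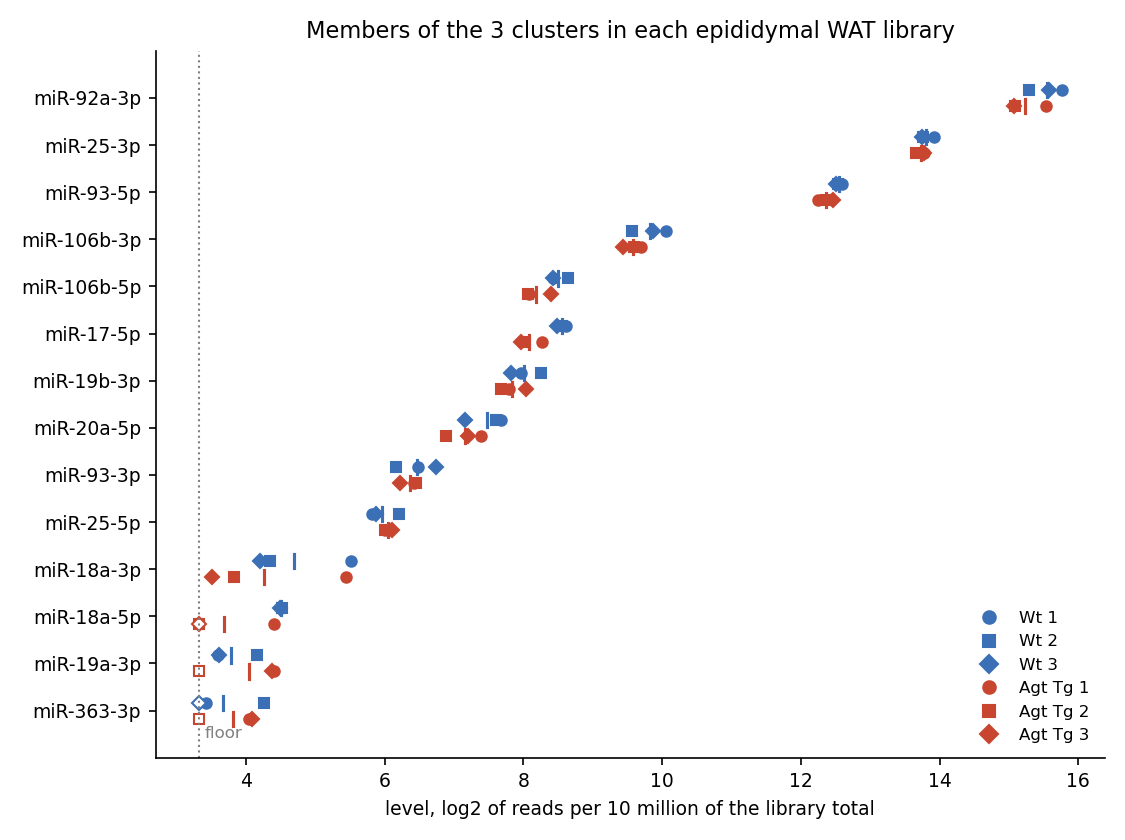
Level of each of the 14 members in each library, on the log2 scale of the deposited values, with Wt in blue, Agt Tg in red, short lines at the group means and open symbols at the floor (dotted line). The members run from a mean of 15.39 for miR-92a-3p to 3.74 for miR-363-3p. The group means lie furthest apart for miR-18a-5p, with a difference of −0.82 and Agt Tg replicates 2 and 3 at the floor.

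The 10 guide arms were ordered by mean level, and each was compared with its neighbour within the same 6 libraries. The order held in all 6 libraries for 5 of the 9 neighbouring pairs. The order was taken from the same 6 libraries, so this is a description and no test is given for it. The largest steps were from miR-93-5p to miR-106b-5p, a mean log2 difference of 4.11 ± 0.14 (SD, n = 6), and from miR-20a-5p to miR-18a-5p, a mean log2 difference of 3.22 ± 0.43 (SD, n = 6). The second of these includes floor values of miR-18a-5p. The other pairs that held were miR-92a-3p above miR-25-3p, miR-25-3p above miR-93-5p and miR-19b-3p above miR-20a-5p. Levels of miR-106b-5p and miR-17-5p differed by 0.02 ± 0.24 (SD, n = 6) on the log2 scale, with miR-106b-5p higher in 3 of 6 libraries. Likewise miR-18a-5p was above miR-19a-3p in 3 of 6 libraries and miR-19a-3p was above miR-363-3p in 4 of 6, all close to the floor.

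Guide arms from 1 transcript differed widely in level. In the miR-106b-25 cluster, miR-25-3p exceeded miR-106b-5p by 5.43 ± 0.20 (SD, n = 6) on the log2 scale, a 43.2-fold difference. Both hairpins lie within 498 bases. Among the guide arms encoded in the miR-17/92 cluster alone, miR-17-5p exceeded miR-19a-3p by 4.40 ± 0.58 (SD, n = 6) on the log2 scale. miR-92a-3p, which both the miR-17/92 and miR-106a-363 clusters encode, lay 11.48 ± 0.58 (SD, n = 6) above miR-19a-3p on the log2 scale. Both differences include the floor value of miR-19a-3p in Agt Tg replicate 2, where they are lower limits. Of the 4 guide arms encoded in the miR-106a-363 cluster alone, miR-106a-5p, miR-18b-5p and miR-20b-5p were at the floor in all 6 libraries. The remaining one, miR-363-3p, was measured at 8 and 15 reads in Wt replicates 1 and 2 and at 17 and 18 reads in Agt Tg replicates 1 and 3, and was at the floor in Wt replicate 3 and Agt Tg replicate 2.

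**Figure D2:**
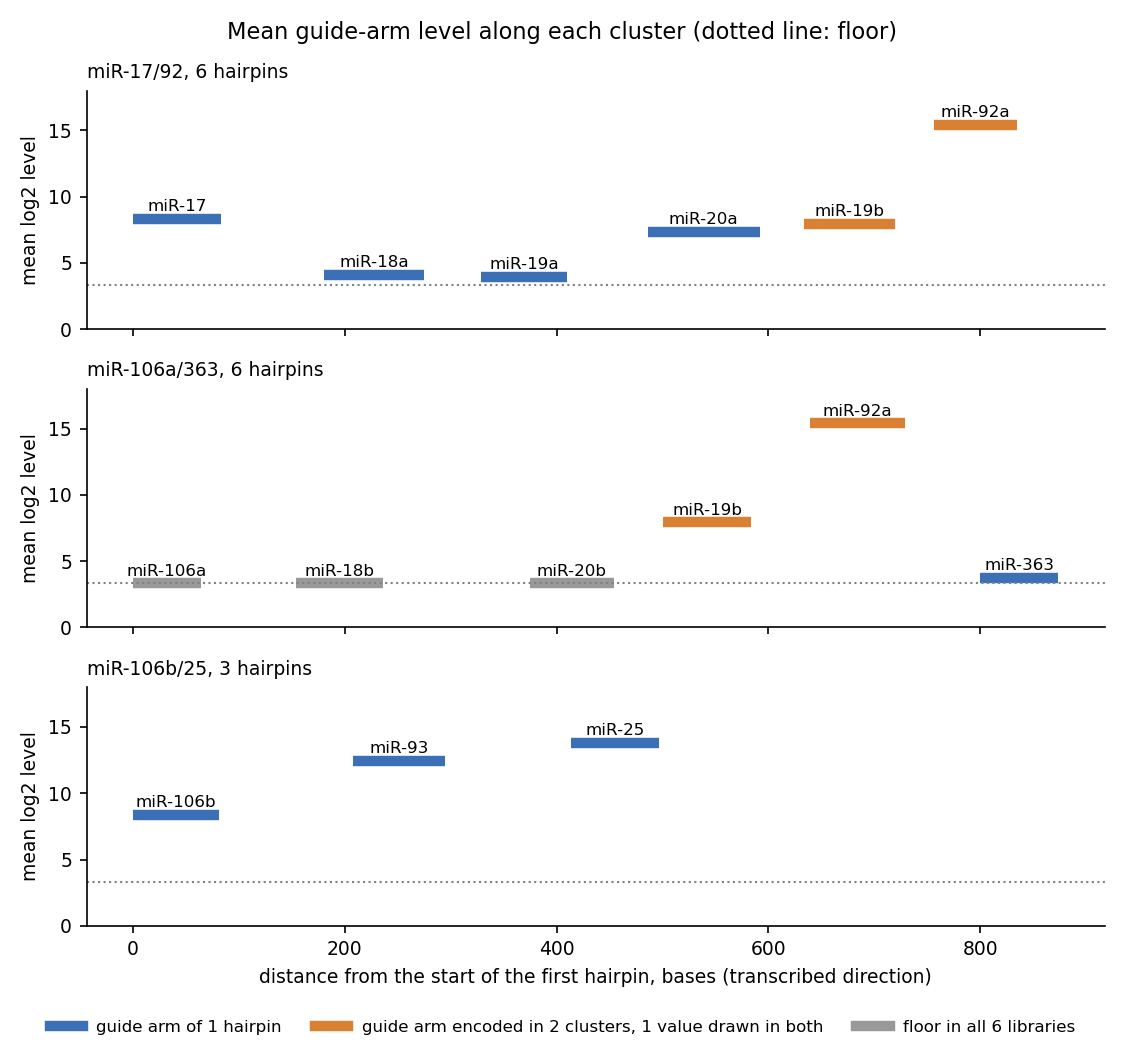
Mean log2 level over 6 libraries of the guide arm of each hairpin, drawn as a segment over the hairpin at its distance in bases from the start of the first hairpin of its cluster. Guide arms encoded in 2 clusters are drawn in both with the same value (orange), those at the floor in all libraries are grey. Levels in miR-17/92 run from 3.91 for miR-19a to 15.39 for miR-92a. Its neighbours miR-18a and miR-19a are both near the floor, and miR-19b at 7.92 lies far from miR-92a.

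Both arms were retained for miR-18a, miR-25, miR-93 and miR-106b. The usual guide arm was far above its partner for miR-25 and miR-93. The 3p arm of miR-25 was 218-fold above the 5p arm, and the 5p arm of miR-93 was 65.7-fold above the 3p arm. The hairpin of miR-106b went the other way, since miR-106b-3p, here counted as the passenger arm, was higher than miR-106b-5p in all 6 libraries. The log2 ratio of its 5p to its 3p arm was −1.36 ± 0.30 (SD, n = 6, exact two-sided sign-flip permutation test, p = 0.031), a 2.57-fold excess of the 3p arm. This p is the smallest that 6 libraries can give, and it only restates that all of them went the same way. The levels of miR-106b-3p were 10.05, 9.56 and 9.87 in Wt and 9.70, 9.59 and 9.43 in Agt Tg libraries. For miR-18a the log2 ratio of the 5p to the 3p arm ran from −1.03 to 0.29. It was above 0 in Wt replicates 2 and 3 and under 0 in the other 4 libraries, of which Agt Tg replicates 2 and 3 had the 5p arm at the floor.

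The arm ratios of the genotypes overlapped for all 4 hairpins over the 6 libraries. The differences in log2 ratio, Agt Tg minus Wt, were −0.39 for miR-18a, 0.15 for miR-25, −0.09 for miR-93 and −0.06 for miR-106b (exact two-sided permutation tests, p = 0.5 to 0.8, adjusted p = 0.8 over the hairpins, where 3 mice against 3 cannot give a p under 0.1). The value for miR-18a rests on floor values of its 5p arm in Agt Tg replicates 2 and 3, where the ratio is an upper limit. Without Wt replicate 2 the differences were −0.22 for miR-18a, 0.29 for miR-25, 0.05 for miR-93 and 0.14 for miR-106b. The ratios of miR-25 then no longer overlapped (exact permutation p = 0.1, the smallest that 2 libraries against 3 allow), and without Wt replicate 1 that difference was 0.02. Over the left-out libraries the difference of miR-18a ran from −0.80 to −0.16, and without Agt Tg replicate 1 that of miR-106b was 0.05.

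**Figure D3:**
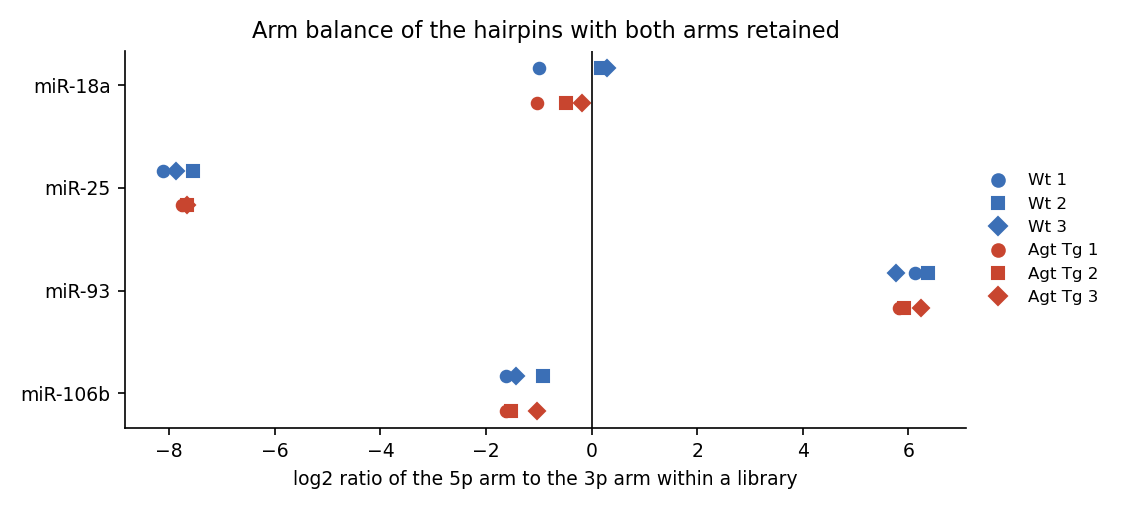
Log2 ratio of the 5p arm to the 3p arm within each library for the 4 hairpins with both arms retained, Wt in blue and Agt Tg in red. The ratio of miR-25 lies near −7.77, that of miR-93 near 6.04 and that of miR-106b between −1.62 and −0.92, while miR-18a lies on both sides of 0.

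Between the genotypes, the members differed by small amounts in these data, and 0 of 14 passed the threshold of a fold change of 2 or more in either direction at an unadjusted p of at most 0.05. Over all 329 rows tested with limma, 16 did (4.86%). At an adjusted p under 0.05 there were 0 of 14 members and 0 of 329 rows (0%), and at an unadjusted p under 0.05 there were 0 of 14 members and 30 of 329 rows (9.12%). With limma-voom on the recovered reads 0 members and 28 rows had an unadjusted p under 0.05. The members' adjusted p in limma lay between 0.531 and 0.893. The median log2 fold change of the members was −0.22, beside −0.19 over all rows, and 11 of 14 members had a negative log2 fold change, beside 222 of 329 rows (67.5%). Median-of-ratios scaling moved the median of all rows to −0.04 and that of the members to −0.07, and under it miR-25-3p and miR-93-3p had positive log2 fold changes. In bulk tissue, fewer cells of a type and less RNA per cell cannot be told apart.

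Of the 14 members, 4 lay lower in every Agt Tg library than in every Wt library, beside 35 of 329 rows (10.6%), and 0 lay higher, beside 23 rows (6.99%). The 4 were miR-17-5p, miR-93-5p, miR-106b-5p and miR-18a-5p. This count rested on the scaling and the libraries used. It was 1, miR-17-5p, under median-of-ratios scaling (4.86% of rows) and 0 under scaling to miR-191-5p (9.73% of rows). Without Wt replicate 2 it was 7 (26.4% of rows), and without Agt Tg replicate 1 it was 6 (27.1% of rows). A member lay higher in every Agt Tg library in 2 of these runs, miR-25-5p without Wt replicate 2 (13.1% of rows) and miR-19a-3p without Agt Tg replicate 2 (9.12% of rows).

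**Figure D4:**
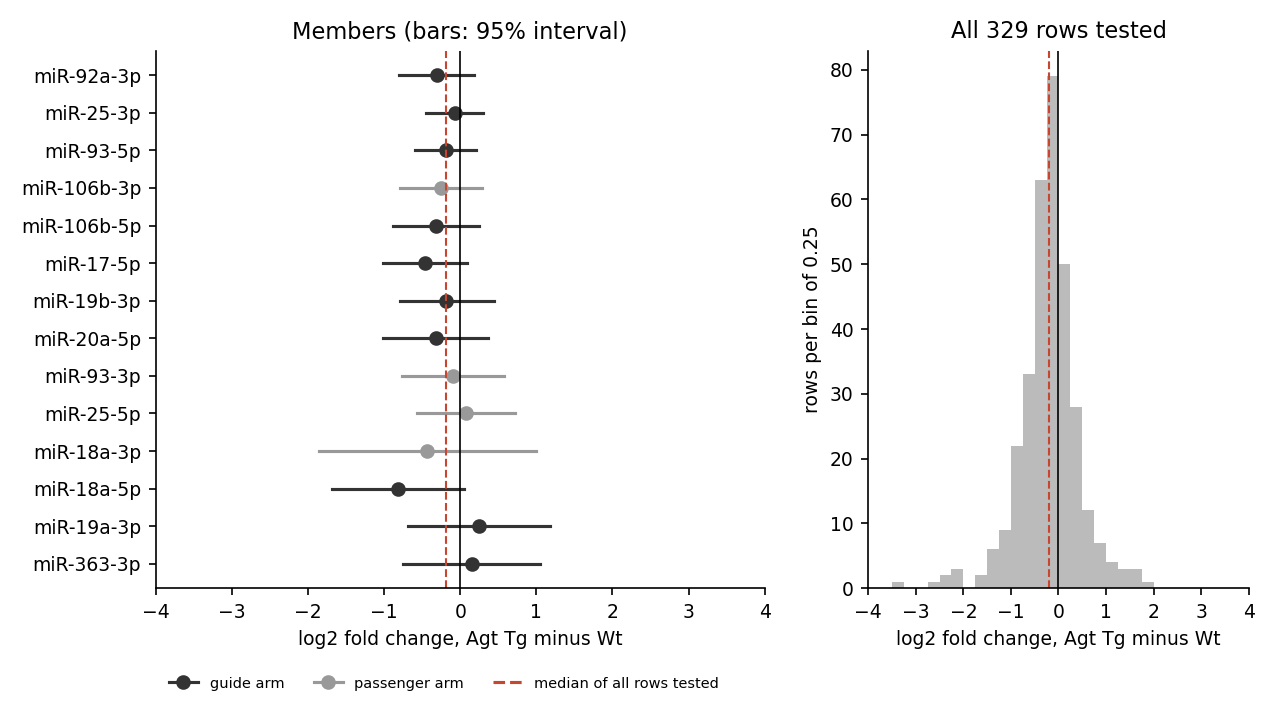
Left, log2 fold change of each member, Agt Tg minus Wt, with its 95% confidence interval from limma, guide arms in black and passenger arms in grey. Right, the number of all 329 rows in each bin of log2 fold change. The intervals of all 14 members include 0, and the median of the rows (dashed) is −0.19.

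miR-17-5p, the founding member of its family, had levels of 8.62, 8.55 and 8.48 in Wt and 8.27, 8.02 and 7.96 in Agt Tg libraries. Its log2 fold change was −0.46 (SE 0.23, 95% interval −1.01 to 0.09, limma adjusted p = 0.531). The groups did not overlap, but the difference did not pass the test. miR-93-5p, known from studies of adipocyte precursors, had levels of 12.60, 12.53 and 12.51 in Wt and 12.25, 12.36 and 12.47 in Agt Tg libraries. Its log2 fold change of −0.19 (SE 0.17) was that of the median row, and the groups lay close together without overlap. For miR-106b-5p the levels were 8.42, 8.64 and 8.43 in Wt and 8.08, 8.07 and 8.40 in Agt Tg libraries, with a log2 fold change of −0.32 (SE 0.24). Under median-of-ratios scaling the log2 fold changes were −0.31 for miR-17-5p, −0.04 for miR-93-5p and −0.16 for miR-106b-5p.

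miR-18a-5p had the lowest log2 fold change, −0.82 (SE 0.37, 95% interval −1.69 to 0.05, limma adjusted p = 0.531), from very few reads. On the log2(CPM + 1) scale its log2 fold change was −0.49. It was counted at 17, 18 and 22 reads in Wt libraries and at 22 reads in Agt Tg replicate 1, and took the floor value in Agt Tg replicates 2 and 3. Per library total, the level in Agt Tg replicate 1 was 4.41, next to 4.51, 4.52 and 4.49 in Wt. Without Agt Tg replicate 1 both remaining Agt Tg values were the floor itself, with no spread. The fit then gave a log2 fold change of −1.18 (limma unadjusted p = 0.0068, adjusted p = 0.187), and neither the size nor the p can be read as exact. The 3p arm of the same hairpin, miR-18a-3p, had levels of 5.51, 4.35 and 4.20 in Wt and 5.44, 3.82 and 3.51 in Agt Tg libraries, so that the first replicate of each genotype was the high one.

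The remaining members had log2 fold changes between −0.43 for miR-18a-3p and 0.25 for miR-19a-3p, and their groups overlapped. Over the left-out libraries the log2 fold change of miR-18a-3p ran from −1.02 to −0.02, that of miR-19a-3p from 0.07 to 0.61 and that of miR-19b-3p from −0.28 to −0.06, which was its value without Wt replicate 2. miR-20a-5p, another member of the miR-17 family, had levels of 7.67, 7.61 and 7.16 in Wt and 7.39, 6.88 and 7.20 in Agt Tg libraries. miR-19b-3p had levels of 7.96, 8.26 and 7.82 in Wt and 7.79, 7.67 and 8.04 in Agt Tg libraries. Both overlapped between genotypes over the 6 libraries. The log2 fold change of miR-20a-5p was −0.32, and it ran from −0.48 to −0.18 over the left-out libraries. Without Wt replicate 3 miR-20a-5p lay lower in every Agt Tg library (16.4% of rows). Without Agt Tg replicate 3 miR-19b-3p did so (15.5% of rows). Leaving out Wt replicate 2 moved the log2 fold change of miR-106b-3p from −0.25 to −0.38, while leaving out Wt replicate 1 moved it to −0.14. Without Wt replicate 2 that of miR-93-3p moved from −0.09 to −0.25 and that of miR-25-5p from 0.07 to 0.20. Those of miR-363-3p and miR-19a-3p, both near the floor, moved from 0.15 to 0.45 and from 0.25 to 0.44. miR-92a-3p had a log2 fold change of −0.31 (SE 0.21, limma adjusted p = 0.587), and its value was −0.16 under median-of-ratios scaling and −0.20 without Wt replicate 1. Without Wt replicate 2 the value was −0.44 and the groups no longer overlapped.

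Levels of blood cell miRNAs also varied over these libraries. The summed log2 level of the haematopoietic list was 15.46, 15.41 and 15.48 in Wt and 15.43, 15.00 and 14.84 in Agt Tg libraries. Its 5 tested miRNAs all had negative log2 fold changes (median −0.56, beside −0.19 and 67.5% negative over all rows), 0 passed either threshold (4.86% and 0% of all rows), miR-150-5p was the most abundant and miR-155-5p was at the floor in all 6 libraries. Agt Tg replicates 2 and 3 were the libraries with the lowest sums and also those with the lowest miR-92a-3p and with miR-18a-5p at the floor. The levels of miR-17-5p and miR-18a-3p were lowest there too, but not all members followed. The lowest miR-93-5p was that of Agt Tg replicate 1 (12.25). Among Agt Tg libraries, miR-25-3p, miR-106b-5p and miR-19b-3p were highest in replicate 3 (13.78, 8.40 and 8.04). The erythroid list, led by miR-486-5p, had summed log2 levels of 17.39, 15.64 and 17.43 in Wt and 17.67, 16.76 and 16.51 in Agt Tg libraries. This sum is mostly miR-486-5p, and the 3 libraries where it was highest were the 3 with the highest miR-92a-3p. The other erythroid miRNAs did not follow that order, since miR-451a was highest in Agt Tg replicate 2 (12.68) and miR-144-3p and miR-144-5p were highest in Agt Tg replicate 3 (8.33 and 9.47), the libraries with the lowest miR-92a-3p. All 4 erythroid miRNAs had positive log2 fold changes (median 0.34), while 67.5% of all rows were negative, and 0 passed either threshold (4.86% and 0% of all rows). The endothelial list, miR-126-3p and miR-126-5p, had summed log2 levels of 16.41, 16.14 and 16.11 in Wt and 16.24, 16.39 and 16.85 in Agt Tg libraries, with miR-126-5p the more abundant. The part of these cell types in the members' levels was not tested.

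Summed by seed, the guide arms of the miR-17 family had log2 levels of 12.81, 12.75 and 12.71 in Wt and 12.46, 12.53 and 12.65 in Agt Tg libraries. This sum is mostly miR-93-5p, whose own log2 fold change was −0.19, so it largely repeats that row. The difference was −0.21 with no overlap (exact two-sided permutation test, p = 0.1, adjusted p = 0.2 over 4 families). It was −0.06 under median-of-ratios scaling (exact permutation p = 0.8) and −0.21 under scaling to miR-191-5p (exact permutation p = 0.6), and the groups overlapped under both. The miR-18 family had log2 sums of 5.03, 5.04 and 5.02 in Wt and 4.96, 4.32 and 4.32 in Agt Tg libraries, where miR-18b-5p was at the floor throughout and the lowest value stands for both guide arms at the floor. The difference was −0.49 (exact two-sided permutation test, p = 0.1, adjusted p = 0.2), and −0.34 under median-of-ratios scaling (exact permutation p = 0.3). The miR-19 family differed by −0.15 (exact permutation p = 0.5), which became 0.00 under median-of-ratios scaling and −0.02 without Wt replicate 2. It became larger, −0.25 without Wt replicate 3 and −0.26 without Agt Tg replicate 3.

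The miR-92 family, by far the most abundant, had log2 sums of 16.12, 15.72 and 15.94 in Wt and 15.91, 15.54 and 15.57 in Agt Tg libraries. The difference was −0.25 with overlapping groups (exact two-sided permutation test, p = 0.2, adjusted p = 0.2667). It was −0.10 under median-of-ratios scaling, −0.15 without Wt replicate 1 and −0.35 without Wt replicate 2. The same seed is carried outside the clusters by miR-92b-3p, miR-32-5p and miR-367-3p, the last of which was at the floor in all 6 libraries. The level of miR-92b-3p was 9.51, 14.36 and 9.41 in Wt and 9.90, 8.59 and 8.77 in Agt Tg libraries, so its high value was that of Wt replicate 2. These outside miRNAs supplied 28.1% of all reads with the seed AUUGCAC in that library and 0.874% to 1.57% in the others. With them added, the log2 sums were 16.13, 16.19 and 15.96 in Wt and 15.93, 15.56 and 15.59 in Agt Tg libraries, and the groups no longer overlapped (difference −0.40, exact two-sided permutation test, p = 0.1). This addition was chosen after the values were seen.

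**Figure D5:**
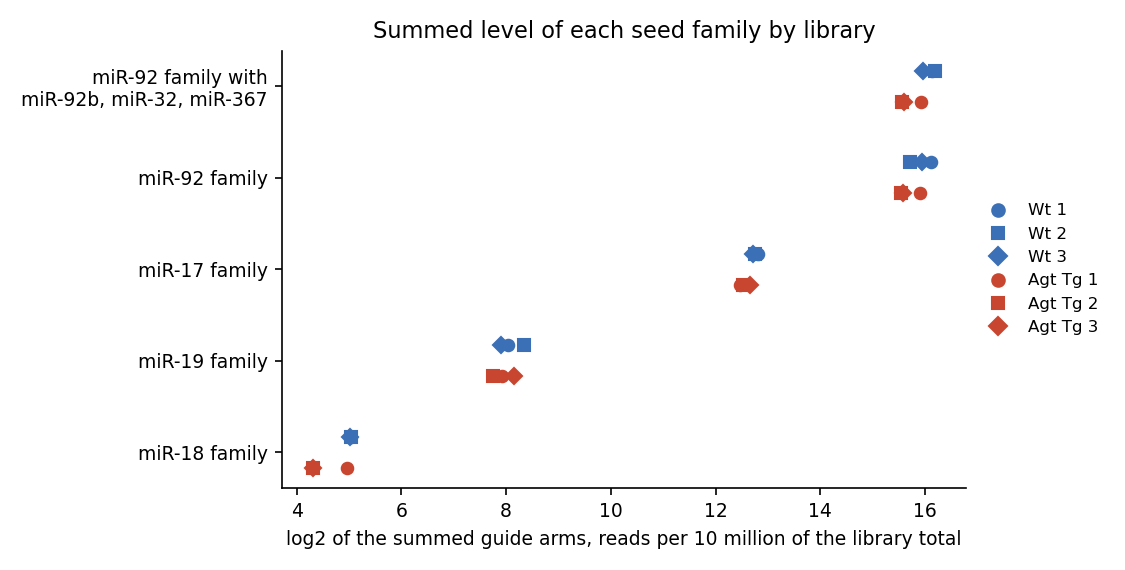
Log2 of the summed guide arms of each seed family in each library, on the scale of the deposited values, Wt in blue and Agt Tg in red. The upper row adds miR-92b-3p, miR-32-5p and miR-367-3p to the miR-92 family, which moves Wt replicate 2 from 15.72 to 16.19 and the other libraries by little.

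The balance between clusters was taken within each library from guide arms encoded in 1 cluster. Such a ratio is free of library scaling as far as its arms lie above the floor, which is set after scaling. The miR-106b-25 arms exceeded the miR-17/92 arms by 5.13, 5.05 and 5.23 in Wt and 5.20, 5.54 and 5.56 in Agt Tg libraries on the log2 scale. The difference between genotypes was 0.30 with overlapping groups (exact two-sided permutation test, p = 0.2, adjusted p = 0.3 over 3 pairs of clusters). The miR-17/92 arms exceeded the miR-106a-363 arms by 3.95, 3.63 and 3.74 in Wt and 3.49, 3.31 and 3.18 in Agt Tg libraries on the log2 scale. Here the groups did not overlap (difference −0.45, exact two-sided permutation test, p = 0.1, adjusted p = 0.3). However, the miR-106a-363 sum held 3 arms fixed at the floor and miR-363-3p at the floor in 2 libraries. This ratio therefore depends on library scaling, and neither its values nor their difference and p can be read as exact. The rows also carry human names, so the floor of these 3 arms need not be the level of the mouse miRNAs. For miR-106b-25 over miR-106a-363 the difference was −0.15 (exact permutation p = 0.4). It ran from −0.27 without Wt replicate 2 to −0.06 without Wt replicate 1, moves with the few reads of miR-363-3p and is likewise not exact.

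The 3 miRNAs outside the clusters whose centred log2 profile over the 6 libraries lay nearest to the mean profile of the guide arms were miR-30c-1-3p, miR-671-5p and miR-28-5p, with root mean square differences of 0.0544, 0.12 and 0.125. miR-671-5p had a mean log2 level of 3.55, close to the floor, and its value for Agt Tg replicate 2 is the floor itself. The median over the other rows was 0.408. The profile used for this search weights all 10 guide arms equally, and 3 of them (miR-18a-5p, miR-19a-3p and miR-363-3p) were at the floor in Agt Tg replicate 2, so it rests partly on values near the floor. Among 18 miRNAs known to be repressed by MYC, the factor that drives the miR-17/92 cluster, 12 had negative log2 fold changes (67.5% over all rows), the median was −0.10 beside −0.19 over all rows, 0 passed either threshold (4.86% and 0% of all rows), and miR-22-3p was the most abundant. Of these 18, 3 lay lower in every Agt Tg library (10.6% of all rows) and 0 lay higher (6.99% of all rows). miR-150-5p belongs to this list and to the haematopoietic list.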

How the data were processed

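Small RNA libraries of 3 Wt and 3 Agt Tg mice were analysed, with groups from the sample labels. The authors used miRBase as the reference and counted mature miRNAs with the Gunaratne Next Generation Pipeline. How many mismatches were accepted is not given in the sources used here. Deposited values are log2 of reads scaled to a total of 10000000, with 10 as the floor. This was worked out from the values: 1924 of 1924 values above the floor gave whole reads within 0.02 reads. The 329 rows that exceeded the floor in 3 or more libraries were fitted by genotype alone with limma 3.58.1 (variance trend) in R 4.3.3, with Benjamini-Hochberg adjustment over all 329. Alternatives were log2(CPM + 1), other filters, scalings and fits, a replicate block and leaving out each library. Sums and ratios were compared by exact permutation with Python 3.11.15. The named miRNAs were all members, miRNAs sharing their seeds, marker and MYC-repressed lists and the 3 nearest profiles. Members and lists were chosen with earlier results of these data known.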

Additional observations from a re-analysis of the deposited data

How the results depend on the processing

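A filter at a mean CPM of 10 left 8 members to test. miR-18a-5p made the count at an unadjusted p under 0.05 equal to 1 without the filter on low values (34 of 373 rows) and 1 without the variance trend (30 of 329 rows). Leaving out each library in turn gave 0 to 1 there (1 without Agt Tg replicate 1, beside 53 of 329 rows) and 0 at an adjusted p under 0.05. At the threshold that also asks for a fold change of 2 or more it gave 0 to 1. The 1 was again miR-18a-5p without Agt Tg replicate 1, resting on floor values. No share of all rows at that threshold is available for this fit, so the count is not read as a result about the members. The median log2 fold change of the members was −0.07 under median-of-ratios scaling and −0.25 to −0.15 over the left-out libraries. Under median-of-ratios scaling miR-93-3p was at 0.06, miR-25-3p at 0.08 and the miR-19 family at 0.00. With a library left out, miR-93-3p ranged from −0.25 to 0.05, miR-25-5p from 0.00 to 0.20 and miR-363-3p from −0.02 to 0.45, and the arm ratio of miR-93 from −0.25 to 0.05 and of miR-106b from −0.24 to 0.14. The count of members lower in every Agt Tg library was 1 under median-of-ratios scaling, 0 under scaling to miR-191-5p and 4 to 7 over the left-out libraries; these alternatives were chosen after seeing the data. The cause was not tested. In the other 159 comparisons of the main results with an alternative, sums and ratios kept their sign, which sets no limit on their size. Counts were equal or close, up to 6 beside 4 for members lower in every Agt Tg library. The median log2 fold change of the members moved by less than the spread.

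The correlations of same-numbered libraries were 0.22, −0.18 and −0.21, so no pairing by replicate number was seen. With 3 libraries per group this cannot show that the samples were unpaired. With the number as a replicate block, 0 members had an unadjusted p under 0.05, beside 26 of 329 rows, and 0 members and 0 rows had an adjusted p under 0.05. At the fold change threshold 0 members passed, and no share of all rows is available for it in this fit. The median log2 fold change of the members was −0.22. With floor values set to 0, ratios with a library at 0 in either arm or cluster, and the miR-18 family sum, gave no value. Depth limits miR-18a-5p, miR-19a-3p and miR-363-3p, each at 22 reads or fewer. It also limits miR-18a-3p, at 34, 16 and 18 reads in Wt and 45, 9 and 12 reads in Agt Tg libraries. Intervals cover the spread between mice and not unequal capture.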
